A study of Mus musculus with 8 samples.

Results

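The 10 genes described here encode chemokines that beta cells can make, namely Ccl5, Cxcl10, Cxcl9, Cxcl11, Cxcl16, Cx3cl1, Ccl2, Ccl7, Ccl20 and Cxcl1. They were chosen by name, and each matched 1 row of a table of 44343 genes from FACS-sorted mouse beta cells. The 4 KO libraries came from MipCreER; Adar floxed/floxed; R26R-EYFP mice, and the 4 Het libraries from MipCreER mice with R26R-EYFP and 1 floxed Adar allele, the other being wild type. All mice received 2 tamoxifen doses of 8 mg at an age of 1 month, and YFP-positive cells were sorted 7 days later. MipCreER uses an insulin promoter to express a Cre recombinase that tamoxifen activates. The R26R-EYFP reporter turns yellow fluorescent where Cre has acted. The Adar enzyme converts adenosine to inosine within double-stranded RNA, and KO cells lose both copies and Het cells lose 1. The comparison addresses what lies behind the islet inflammation and diabetes of these KO mice. How many mice went into each library is not stated, and the p-values reflect library-to-library spread, which may be technical. In limma, the main test, that spread is pooled over genes of like level and is not each gene's own.

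Chemokines are small proteins that guide leukocytes along a gradient through receptors coupled to G proteins. Their names follow the spacing of the first cysteines, as CC, CXC or CX3C. Interferon-induced chemokines such as CXCL10 draw activated T cells that carry CXCR3, whereas chemokines induced by NF-kappaB, such as CXCL1 and CCL20, draw neutrophils and CCR6-bearing lymphocytes. In islets, CXCL10 is known as an early product of beta cells exposed to interferons or viruses.

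The libraries held 5370765 to 15883473 reads in KO and 5925893 to 12819040 in Het. Values are the deposited normalized counts, in which each library's gene counts share 1 divisor. Across the 6697 genes whose mean reached 200, the median level of KO 1 and KO 2 lay 0.89 and 0.94 log2 units above the average library, and that of KO 3 and KO 4 lay at −0.76 and −0.55, against −0.48 to 0.21 in the Het libraries. KO 3 and KO 4 held almost no reads of the Y-linked gene Ddx3y (1.10 and 0), while Het 1 held almost no Xist (19.2), so sex and library are partly confounded with genotype. KO 1, KO 2, Het 2, Het 3 and Het 4 held both Xist (4103 to 7207) and Ddx3y (198 to 1285). They are the libraries of both sexes below, and cells of both sexes mean more than 1 mouse in each. Adar, the targeted gene, was at 615 to 4030 in KO and 744 to 1187 in Het (log2 fold change 0.75 ± 0.58, limma adjusted p = 0.910), and a gene-level count does not measure the floxed part. Insulin RNA marked the sort: Ins2 was at 125891 to 835219 in KO and 389199 to 799944 in Het.

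Ccl5 showed by far the widest separation of the 10. Ccl5 (ENSMUSG00000035042, mm10 chromosome 11, 83525778 to 83530518, minus strand) encodes RANTES, a CC chemokine that attracts T cells, monocytes and eosinophils. Its normalized count was 2820, 391, 218 and 414 in KO 1 to KO 4, against 2.56, 2.50, 4.29 and 4.05 in Het 1 to Het 4. The lowest KO library lay far above the highest Het library, and KO 1 held 8.26 times the mean of the other KO libraries. These values rest on 198 to 3146 reads per library in KO and on 2 to 5 in Het. The log2 fold change was 7.04 ± 0.40 (SE) on the scale of log2(value + 1), the highest fold change of 21498 tested genes (limma, Benjamini-Hochberg adjusted p = 9.6e-65). This SE and p rest on a spread pooled over genes, not on that of Ccl5 alone. The SE was 0.54 in limma without trend or robust settings and 0.96 in DESeq2. Without KO 1 the log2 fold change was 6.27, with KO 1 and KO 2 only 7.94, with KO 3 and KO 4 only 6.14, and with libraries that hold reads of both sexes 7.86. With 8 in place of 1 added to each value it was 5.66, and with 0.5 added 7.23. Each of these was past the threshold of 0.05. With TMM scaling, which sets factors from a trimmed set of genes, limma gave 6.85 (adjusted p = 2.01e-05), edgeR on the recovered reads gave 7.57 (adjusted p = 2.7e-05) and DESeq2 8.14 (adjusted p = 5.57e-14). In bulk RNA of sorted cells, more cells that make a transcript and more of it per cell cannot be told apart.

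Cxcl9, Cxcl10 and Cxcl11 bind the same receptor, CXCR3, and lie side by side on the minus strand of chromosome 5. Cxcl9 (ENSMUSG00000029417) spans 92321347 to 92328079, Cxcl10 (ENSMUSG00000034855) 92346638 to 92348889 and Cxcl11 (ENSMUSG00000060183) 92359544 to 92365485 (mm10, GENCODE M21). The annotation lists Cxcl11 as a polymorphic pseudogene, since its reading frame is intact in some mouse strains and broken in others. Cxcl10 had a normalized count of 8444, 2462, 1250 and 1501 in KO 1 to KO 4, against 676, 991, 573 and 1144 in Het 1 to Het 4. All 4 KO libraries lay above the highest Het library, by a small margin for KO 3, and KO 1 held 4.86 times the mean of the others. The log2 fold change of Cxcl10 was 1.62 ± 0.59, with a 95% interval of 0.47 to 2.77, and did not pass (limma adjusted p = 0.304). For its 8 values the exact permutation test, two-sided, gave p = 0.0286, the smallest that 70 arrangements allow. That p follows once the groups do not overlap, and Ccl5, Cxcl9 and Ccl2 had the same. DESeq2 on the recovered reads called Cxcl10 higher (adjusted p = 0.0173), as did limma without KO 3 (adjusted p = 0.0178). Without KO 1 its log2 fold change was 1.03 ± 0.60 (limma adjusted p = 0.99983). With KO 1 and KO 2 only the log2 fold change was 2.48 (limma adjusted p = 2.75e-14), and with KO 3 and KO 4 only 0.75 (limma adjusted p = 0.159).

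The other genes of the cluster, Cxcl11 and Cxcl9, were not called. Cxcl11 was at 1009, 188, 192 and 133 in KO 1 to KO 4, against 263, 366, 95.1 and 122 in Het 1 to Het 4. Only KO 1 lay above the Het range. The log2 fold change of Cxcl11 was 0.53 ± 0.47 (limma adjusted p = 0.92), and without KO 1 it was −0.12. Cxcl9 was at 18.8, 11.6, 19.9 and 17.3 in KO 1 to KO 4, against 10.2, 10.001, 5.14 and 9.72 in Het 1 to Het 4. The groups did not overlap, but the difference rests on 77 reads in KO (95% Poisson interval 60.8 to 96.2, counting error only) and 34 in Het (23.5 to 47.5). The log2 fold change of Cxcl9 was 0.89 ± 0.50 (limma adjusted p = 0.814), and with TMM scaling the groups overlapped. Art3, an ADP-ribosyltransferase gene on the opposite strand, spans both Cxcl10 and Cxcl11 and held 5 to 40 reads per library in KO and 9 to 30 in Het. The pseudogene Gm2673, opposite part of Cxcl11, held 6 to 36 in KO and 16 to 32 in Het.

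The 250 bases before the annotated start are shown for Cxcl10, Cxcl9 and Cxcl1, because they set the most abundant of these chemokines beside its neighbour and beside a chemokine of another receptor (RefSeq, GRCm38.p6). Cxcl10 is at chr5:92348890-92349139 (minus strand), Cxcl9 at chr5:92328080-92328329 (minus strand) and Cxcl1 at chr5:90890995-90891244 (plus strand). Each runs 5′ to 3′ towards the start, and capitals mark matches to the interferon-stimulated response element (2 copies of GAAA with any 2 bases between them) or to the 10-letter NF-kappaB consensus, searched on both strands.
Cxcl10: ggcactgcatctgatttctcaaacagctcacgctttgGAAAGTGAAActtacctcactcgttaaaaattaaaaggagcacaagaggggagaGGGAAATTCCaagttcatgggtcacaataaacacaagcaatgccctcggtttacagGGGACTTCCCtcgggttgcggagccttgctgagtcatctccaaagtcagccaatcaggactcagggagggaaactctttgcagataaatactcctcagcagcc
Cxcl9: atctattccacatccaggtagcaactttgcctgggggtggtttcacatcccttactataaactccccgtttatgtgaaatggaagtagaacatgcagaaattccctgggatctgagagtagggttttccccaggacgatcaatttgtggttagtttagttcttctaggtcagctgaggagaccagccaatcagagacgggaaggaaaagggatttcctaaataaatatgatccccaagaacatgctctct
Cxcl1: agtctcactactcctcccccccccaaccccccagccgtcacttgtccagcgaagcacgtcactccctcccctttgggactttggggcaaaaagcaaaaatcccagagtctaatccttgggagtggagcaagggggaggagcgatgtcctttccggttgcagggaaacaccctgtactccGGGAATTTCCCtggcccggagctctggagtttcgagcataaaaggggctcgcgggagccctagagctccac
Cxcl10 held 1 response element match, at 213 to 204 bases before the start, and 2 NF-kappaB matches, at 159 to 150 and 103 to 94. Cxcl1 held 1 stretch that matched NF-kappaB on both strands, in overlapping positions from 71 to 61 bases before the start. In these letters Cxcl9 held neither. Promoter entries matched 5 of the 10 genes (also Cx3cl1 and Ccl20), of which 1 held the response element and 3 the NF-kappaB consensus. Of 32841 windows of the same length, 2.98% held the first and 3.90% the second. The genes with no entry are Ccl5, Cxcl11, Cxcl16, Ccl2 and Ccl7.

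**Figure D1:**
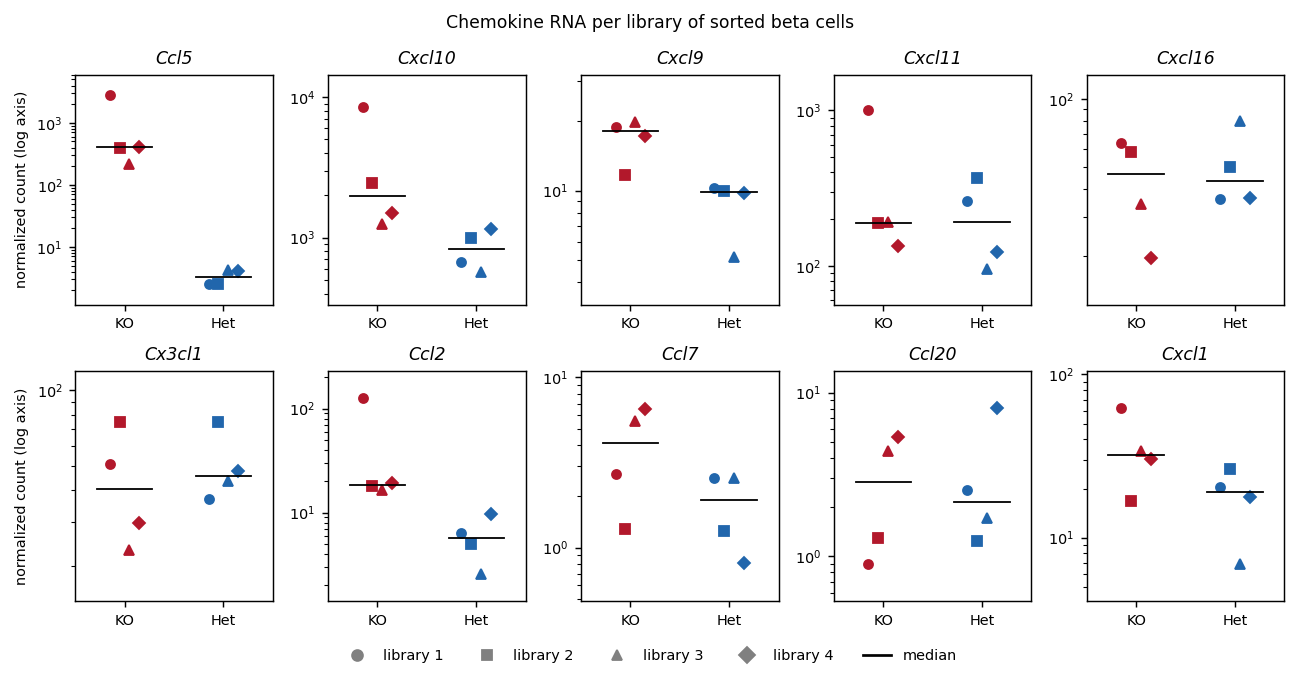
Normalized count of each of the 10 chemokine genes (vertical axis, log scale, own range per panel) in the 4 KO libraries (red) and the 4 Het libraries (blue). Marker shapes give the library number and black lines the median, and KO 1 is the highest library for Ccl5, Cxcl10, Cxcl11, Ccl2 and Cxcl1.

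The ligands of CCR2, which recruits monocytes from blood, were low. Ccl2 (ENSMUSG00000035385, chromosome 11, 82035571 to 82037453, plus strand), the monocyte chemoattractant MCP-1, was at 126, 18.1, 16.5 and 19.1 in KO 1 to KO 4, against 6.41, 5.001, 2.57 and 9.72 in Het 1 to Het 4. The groups did not overlap, 3 KO libraries were close to each other, and KO 1 held 7.06 times their mean. The values of Ccl2 rest on 141, 14, 15 and 32 reads in KO 1 to KO 4, and on 3 to 12 reads per library in Het. Ccl2 rose by a log2 fold change of 2.24 ± 0.48 (limma adjusted p = 0.000602). That call was lost without KO 1 (1.56, adjusted p = 0.676), with TMM scaling (2.04, adjusted p = 0.278), with edgeR (2.43, adjusted p = 0.130) and with KO 3 and KO 4 only (1.55, adjusted p = 0.0513). DESeq2 gave no p-value for Ccl2. A gene annotated opposite Ccl2, Gm17268, was not analysed here. Ccl7 (ENSMUSG00000035373, 82045712 to 82047525), which encodes MCP-3 and lies 8.26 kb downstream of Ccl2, was at 2.69, 1.29, 5.51 and 6.55 in KO 1 to KO 4, against 2.56, 1.25, 2.57 and 0.81 in Het 1 to Het 4. Its 20 reads in KO (95% Poisson interval 12.2 to 30.9) and 7 in Het (2.81 to 14.4) are too few to judge, and its mean was under the minimum of 10 for testing.

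Cxcl1 and Ccl20 are chemokines of the NF-kappaB type. Cxcl1 (ENSMUSG00000029380, chromosome 5, 90891241 to 90893115, plus strand), a ligand of CXCR2 that draws neutrophils, was at 62.7, 16.8, 34.2 and 30.4 in KO 1 to KO 4, against 20.5, 26.3, 6.86 and 17.8 in Het 1 to Het 4. The groups overlapped, since KO 2 lay below Het 1, Het 2 and Het 4. The log2 fold change of Cxcl1 was 0.96 ± 0.42, with a 95% interval of 0.14 to 1.79 (limma adjusted p = 0.552). Ccl20 (ENSMUSG00000026166, chromosome 1, 83116766 to 83119167, plus strand), the ligand of CCR6, was at 0.90, 1.29, 4.41 and 5.36 in KO 1 to KO 4, against 2.56, 1.25, 1.71 and 8.10 in Het 1 to Het 4. Its 15 reads in KO and 15 in Het (95% Poisson interval 8.40 to 24.7 for each) are also too few to judge, and it was not tested.

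Cxcl16 and Cx3cl1 differ from the rest in that they are made as membrane proteins with a chemokine head, which proteases of the ADAM family release. Cxcl16 (ENSMUSG00000018920, chromosome 11, 70453983 to 70459984, minus strand), the ligand of CXCR6 on activated T cells, was at 63.6, 58.2, 34.2 and 19.6 in KO 1 to KO 4, against 35.9, 50.01, 79.7 and 36.5 in Het 1 to Het 4. Cx3cl1 (ENSMUSG00000031778, chromosome 8, 94772009 to 94782427, plus strand), or fractalkine, the ligand of CX3CR1, was at 51.1, 75.1, 23.2 and 29.8 in KO 1 to KO 4, against 37.2, 75.0, 43.7 and 47.8 in Het 1 to Het 4. For both genes the groups overlapped. KO 1 and KO 2 were higher than KO 3 and KO 4, as were the overall levels of these libraries, whose part in this order was not tested. Their log2 fold changes were −0.26 (95% interval −1.04 to 0.52) and −0.28 (−1.05 to 0.50), neither past the threshold (limma adjusted p = 0.961 for each). Zmynd15, which overlaps Cxcl16 on the opposite strand, held 18 to 37 reads in KO and 27 to 39 in Het, beside 31 to 71 in KO and 28 to 93 in Het for Cxcl16.

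Of the 10 genes, 8 passed the minimum mean of 10 and 2 of these were called higher in KO, Ccl5 and Ccl2, and 0 lower. Ccl5, Ccl2 and Cxcl9 passed that minimum only through their KO values, since their Het means were 3.35, 5.92 and 8.78. Counts among the 8 that hold these genes therefore depend in part on the filter. Over all 21498 tested genes 0.921% were called higher and 0.0233% lower. Before adjustment, 4 of the 8 were higher at p under 0.05, against 4.05% of all genes. All KO values lay above all Het values for 4 of the 8 (Ccl5, Cxcl10, Cxcl9 and Ccl2), against 2.19% of all tested genes. With TMM scaling Ccl5 alone was called (0.637% of all genes), and its groups and those of Cxcl10 did not overlap. edgeR called 0.673% of all genes higher and DESeq2 1.25%. With KO 1 and KO 2 only, 4 of the 8 were called, but so were 45.5% of all genes, and with the libraries of both sexes only 4 of the 8 and 39.4% of all genes. The share of all genes called higher was 1.27% with KO 3 and KO 4 only, 0.488% without KO 1 and 1.57% without KO 3. The median log2 fold change of the 8 was 0.93, beside 0.05 over all genes, and 0.72 beside −0.16 with TMM scaling.

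**Figure D2:**
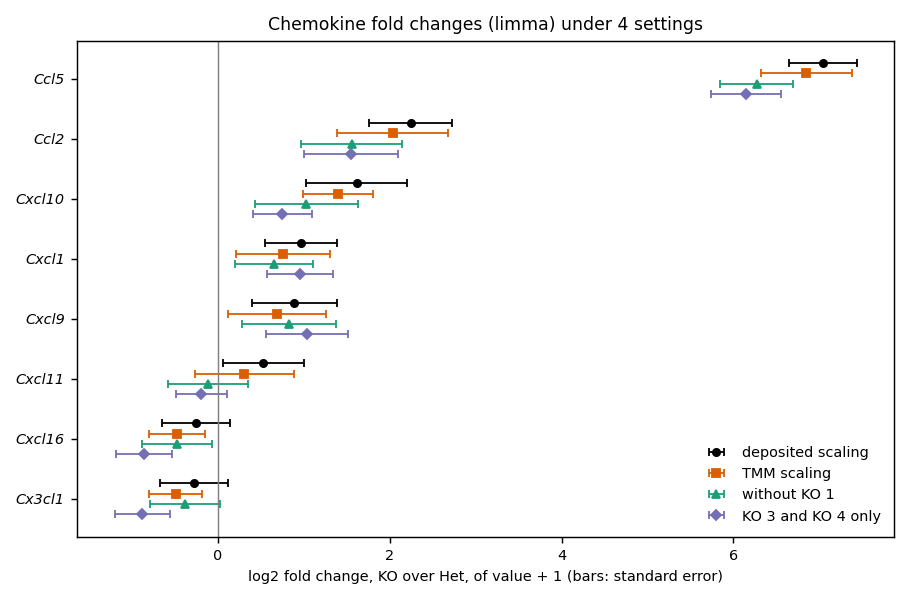
Log2 fold change of the 8 tested chemokines, KO over Het, on the log2(value + 1) scale (horizontal axis) with standard errors as bars, from limma with the deposited scaling, with TMM scaling, without KO 1 and with KO 3 and KO 4 only. Ccl5 stays above 6 in the 4 settings, Ccl2 and Cxcl10 shrink without KO 1, and Cxcl11 changes sign.

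Per kilobase of exon, which allows genes to be compared, Cxcl10 was the most abundant of 36 chemokines in both genotypes. It averaged 1516 ± 1507 normalized counts per kb in KO and 376 ± 118 in Het (SD, n = 4 each). Ccl5 averaged 1001 ± 1294 per kb in KO and 3.49 ± 0.99 in Het, which placed it second of the 36 by mean in KO and at rank 27 in Het. Cxcl11 followed with 100 ± 111 per kb in KO and 55.8 ± 33.4 in Het, and its mean lay within 1 SD of the other means in KO. In each of the 4 KO libraries the order was Cxcl10, Ccl5, Cxcl11. Ccl5 made up 40.4%, 23.5%, 20.3% and 30.1% of the summed chemokine level in KO 1 to KO 4, against 0.45%, 0.33%, 0.90% and 0.53% in Het 1 to Het 4. These shares do not depend on the scaling between libraries, and the groups did not overlap. The share of Cxcl10 was 46.5% to 63.0% in KO and 50.7% to 63.5% in Het, overlapping ranges. Cxcl10 and Ccl5 together took 69.9% to 91.9% in KO and 51.1% to 64.0% in Het.

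**Figure D3:**
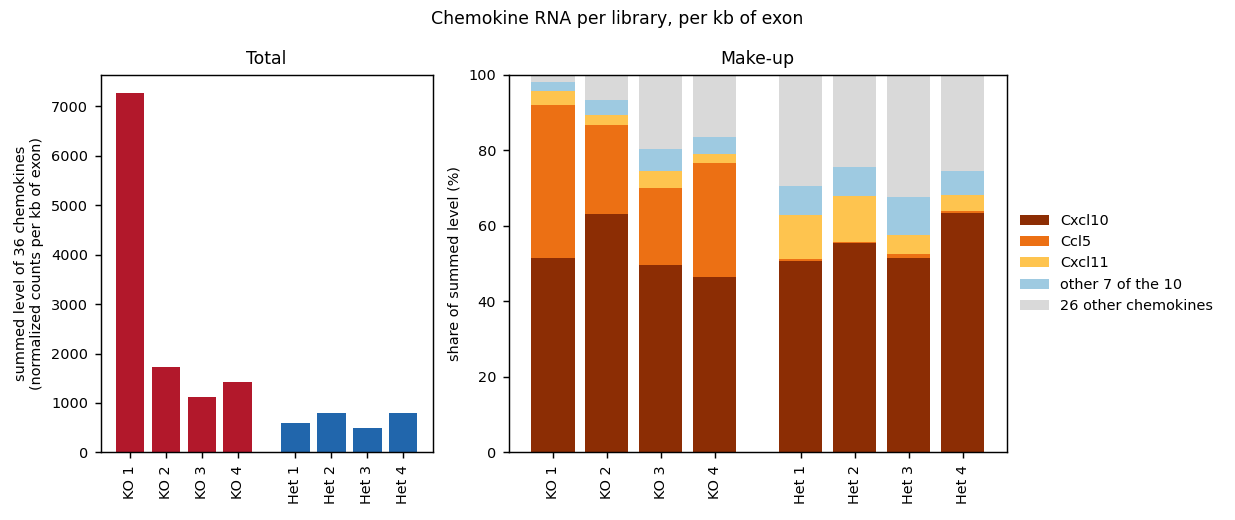
Left, summed level of 36 chemokine genes in normalized counts per kb of exon in each library (KO red, Het blue). Right, the percentage of that sum from Cxcl10, Ccl5, Cxcl11, the other 7 of the 10 genes and 26 other chemokines, where Ccl5 takes 20.3% to 40.4% in KO and under 1% in Het.

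Several of the 10 lie near the level of genes that beta cells do not use. Genes of odorant and vomeronasal receptors, whose products serve sensory neurons, were taken as a measure of that level (1545 genes, a choice made after the values were seen). Their 95th percentile was 3.21 to 8.37 normalized counts per kb in the KO libraries and 4.49 to 7.31 in the Het libraries. Cxcl10 and Cxcl11 lay above it in 8 of 8 libraries, and Cxcl16, Cx3cl1 and Cxcl1 in 7 of 8. Ccl5 lay above it in 4 of 4 KO libraries and 0 of 4 Het libraries, and Ccl2 in 4 of 4 and 1 of 4. Cxcl9 exceeded it in 2 KO libraries and no Het library, Ccl7 in 1 KO library and no Het library, and Ccl20 in none.

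Other chemokines were not called. Of 28 further chemokine genes listed, 26 matched a row and 8 were tested. None passed in limma (0 of 8, with 1 higher at an unadjusted p under 0.05), with a median log2 fold change of −0.37. Ccl25, which guides T cells to thymus and gut, had the highest mean, at 70.6 to 172 in KO and 115.0 to 130 in Het. Receptors were low too. Of 22 chemokine receptors 10 were tested and 0 were called (0 at an unadjusted p under 0.05), with a median of −0.18. Ccr9, the receptor of Ccl25, had the highest mean among them, at 18.8 to 46.3 in KO and 19.7 to 27.5 in Het. Cxcr3, the receptor of the Cxcl9, Cxcl10 and Cxcl11 products, was at 0 to 5.51 in KO and 2.50 to 11.3 in Het. Enzymes that release or trim chemokines had 0 of 5 called (0 at an unadjusted p under 0.05). Dpp4, which clips the CXCR3 ligands, was at 344 to 1686 in KO and 721 to 1352 in Het, and the shedding protease Adam10 at 249 to 990 in KO and 331 to 560 in Het.

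Regulators of chemokine transcription and mRNA decay had 2 of 16 members called higher, Irf7 and Tnfaip3, with none lower, beside 0.921% of all tested genes called higher. Without adjustment 5 were higher and 0 lower, beside 4.05% of all tested genes higher. With the deposited scaling all 16 fold changes were positive, with a median of 0.74. The median was 0.05 over all tested genes and 0.25 over genes whose mean reached 50. With TMM scaling 14 were positive, Nfkb1 and Irf5 being at −0.19 and −0.07, with a median of 0.52, beside −0.16 over all tested genes. Irf7, a transcription factor that interferon induces, was at 6887, 1896, 1090 and 1851 in KO 1 to KO 4, against 232, 300, 232 and 287 in Het 1 to Het 4. It rose by 3.11 ± 0.55 (limma adjusted p = 5.85e-06), and as for Ccl5 the groups were far apart and KO 1 was highest. Irf7 missed the threshold in 1 setting, TMM scaling with neither trend nor robust settings (adjusted p = 0.0561). Tnfaip3, which restrains NF-kappaB, rose by 1.97 ± 0.54 (limma adjusted p = 0.0274). That call was lost without any 1 of Het 1, Het 2, Het 3, Het 4 and KO 1 (adjusted p = 0.127 to 0.432). Irf1, the regulator with the highest mean over the 8 libraries, was at 973 to 4605 in KO and 1018 to 1316 in Het and was not called (0.79 ± 0.59, adjusted p = 0.903).

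By the distance between their 8 log2(value + 1) values, each centred on its own mean, the 5 genes most like Ccl5 among 10507 genes whose mean reached 50, predicted gene models left out, were Ifit2, Ifna4, Ifnb1, Ifi44 and Ifnl3, at distances of 2.02 to 3.27 against a median of 9.89. They comprise 3 interferon genes and 2 interferon-induced genes. The 5 most like Cxcl10 were Ifit1, Oas1b, Naaa, Mlkl and Oas1g, at distances of 0.84 to 0.95 against a median of 2.69. Ifit1, an RNA-binding antiviral protein, was at 16237, 5608, 2744 and 3306 in KO 1 to KO 4, against 1191, 1438, 1546 and 1680 in Het 1 to Het 4. These distances describe 8 libraries that share depth and scaling. The gap between KO and Het carries much of each distance from Ccl5, whose 5 nearest genes had log2 fold changes of 4.93 to 5.97.

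Genes around Ccl5 and Cxcl10 were read as a check of position, with a window of 100 kb chosen after the values were seen. Heatr9, which lies on the same strand 3.60 kb beyond the 3′ end of Ccl5, was at 186, 33.7, 33.1 and 66.1 in KO 1 to KO 4, against 19.2, 22.5, 14.6 and 26.7 in Het 1 to Het 4. Heatr9 rose by 1.54 ± 0.40 (limma adjusted p = 0.0152), but not without Het 1 (adjusted p = 0.125), Het 2 (0.0789), Het 3 (0.154) or KO 1 (0.923), nor with TMM scaling (0.374), edgeR (0.204) or limma without its trend and robust settings (0.289). On the other side of Ccl5 the chemokine genes Ccl9 and Ccl6 had log2 fold changes of −0.40 and −0.38. Of 8 tested genes within 100 kb of Cxcl10, 0 were called (1 at an unadjusted p under 0.05, Naaa, an acid amidase gene, with 1.41 ± 0.43). Within 100 kb of Ccl2, 1 of 7 neighbours was tested, Asic2, at −0.18.

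**Figure D4:**
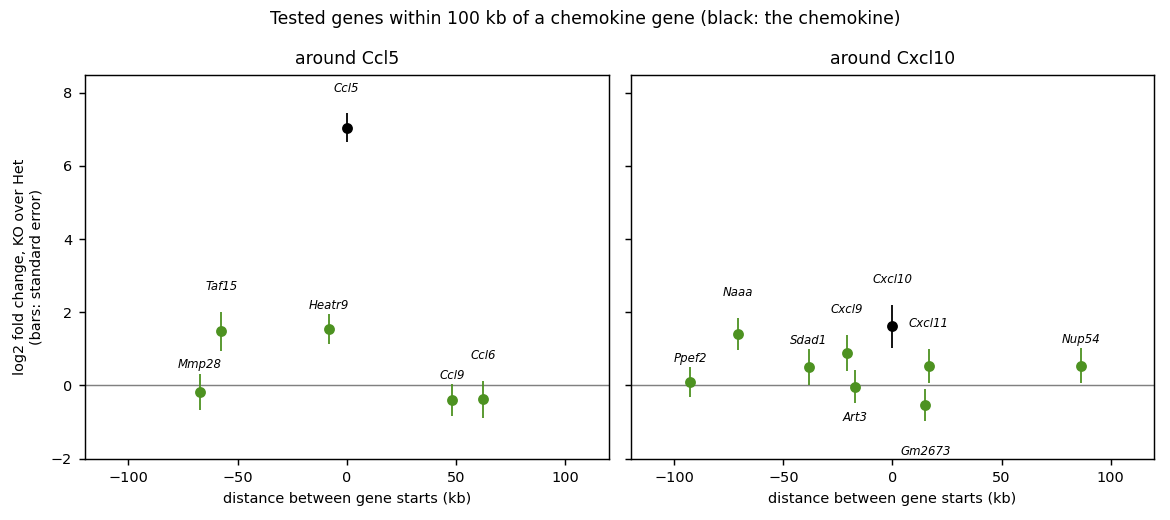
Log2 fold change (KO over Het, bars give the standard error) of the tested genes whose start lies within 100 kb of the start of Ccl5 (left) or Cxcl10 (right), against the distance between the starts in kb. Black points are the 2 chemokine genes, and Ccl5 at 7.04 stands far above its neighbours, which range from −0.40 to 1.54.

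Because leukocytes also make these chemokines, 46 markers of 7 leukocyte lists were read beside them. Their summed normalized count was 656 to 971 in the KO libraries and 999 to 1200 in the Het libraries, lower in each KO library than in each Het library. That separation rests on C1qa: without it, a choice made after its values were seen, the sums were 686, 448, 930 and 870 in KO 1 to KO 4, against 954, 844, 766 and 946 in Het 1 to Het 4, and the groups overlapped. The other C1q chains, C1qb and C1qc, were at 2.69 to 4.41 and 3.88 to 6.62 in KO, against 2.57 to 6.48 and 5.67 to 12.8 in Het. Of 31 tested in limma, none rose (0, also without adjustment) and 1 fell. Without adjustment 5 of the 31 were lower, beside 2.7% of all tested genes. Some markers lie near the level of the odorant and vomeronasal receptor genes, whose median per kb was 0.84 to 3.09 in KO and 1.40 to 2.52 in Het. Ptprc averaged 2.46 per kb in KO and 2.64 in Het, and Cd3e 3.36 and 3.38. Others lay above it, such as Cd68 at 22.7 in KO and 29.7 in Het. For markers near that level, a lower value cannot be read as fewer leukocytes. The summed marker count also depends on the scaling. The T cell list held 4.40 to 37.8 RPM (reads scaled to the library total) in KO and 14.1 to 33.8 RPM in Het. By list, macrophage and monocyte markers, C1qa included, summed to 179 to 390 in KO and 343 to 489 in Het. T cell markers summed to 73.8 to 204 in KO and 155 to 222 in Het. The T cell receptor gene Trac was at 1.19 to 2.21 in KO and 0 to 2.56 in Het, Cd3e at 8.07 to 19.9 in KO and 8.75 to 19.4 in Het, and the macrophage marker Adgre1 at 5.38 to 35.3 in KO and 13.7 to 25.003 in Het. The pan-leukocyte gene Ptprc was at 15.5 to 73.9 in KO and 34.3 to 64.0 in Het. In KO 1 and in KO 2 the summed markers lay below those of every Het library, with and without C1qa. So did the share of their reads in odorant and vomeronasal receptor genes (0.050% and 0.035%, against 0.087% to 0.244% in Het). A link between these was not tested. The highest means in the other leukocyte lists were those of Lck, Prf1, Zbtb46, Csf3r and Ms4a1, none of them called. Lck averaged 45.0 ± 25.8 in KO and 31.7 ± 5.28 in Het (SD, n = 4 each). It was at 83.4 in KO 1 and 27.2 to 35.1 in the other KO libraries. Zbtb46 was at 53.1 to 185 in KO, the highest in KO 1, and 74.5 to 101 in Het. Prf1 was at 2.59 to 17.3 in KO and 15.4 to 21.8 in Het. Csf3r was at 10.8 to 24.3 in KO and 23.1 to 48.7 in Het. Ms4a1 was at 12.9 to 35.3 in KO and 21.4 to 37.3 in Het. In KO 1, Lck and Zbtb46 thus lay above every Het library. Prf1, Csf3r and Ms4a1 (5.38, 10.8 and 14.3 in KO 1) lay below every Het library.

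The marker called lower was C1qa, a complement gene listed with the macrophage markers. It was at 71.7, 208, 40.8 and 26.8 in KO 1 to KO 4, against 246, 265, 232 and 164 in Het 1 to Het 4. Per kb of exon C1qa averaged 218 in Het, beside 3.83 for C1qb and 4.31 for C1qc. Which cells its reads come from was not tested, so they cannot be taken to mark macrophages here. C1qa had a log2 fold change of −1.79 ± 0.43 (limma adjusted p = 0.00513), which did not hold when Het 1 (adjusted p = 0.0679), Het 2 (0.0817) or KO 4 (0.0956) was left out, without trend or robust settings (0.127) or with DESeq2 (0.292). No leukocyte marker was at 0 in all 8 libraries. The part of other cells in the chemokine values was not tested beyond these levels.

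**Figure D5:**
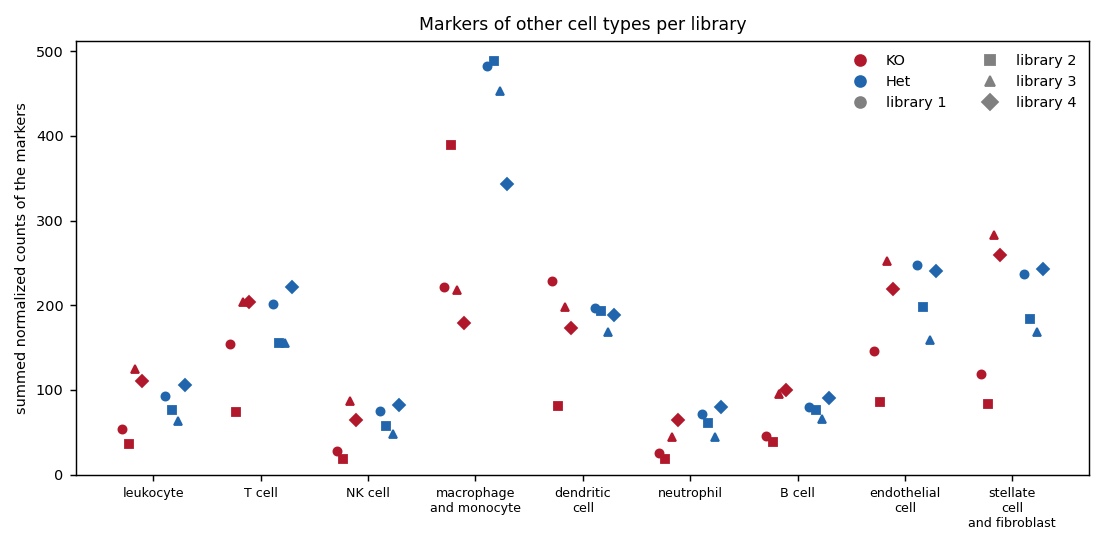
Summed normalized counts (vertical axis) of the markers of 9 other cell types in each KO library (red) and each Het library (blue), with marker shapes for the library number. Macrophage and monocyte markers, C1qa included, reached 179 to 390 in KO and 343 to 489 in Het, and in no list did all KO libraries lie above all Het libraries.

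Endothelial cells and fibroblasts can also make Cx3cl1, Ccl2 and Cxcl1. Of their markers 0 of 5 and 0 of 6 tested were called (0 of each at an unadjusted p under 0.05 in limma). Kdr had the highest mean among the endothelial markers, at 27.8 to 76.1 in KO and 55.7 to 89.7 in Het, and Col1a2 among those of fibroblasts, at 11.6 to 79.4 in KO and 35.1 to 56.7 in Het. Duct markers had 1 of 4 called lower, Krt19 (−1.69 ± 0.40, limma adjusted p = 0.00488), which was not called without Het 3 (adjusted p = 0.564), without KO 1 (0.0697), with TMM scaling (0.162) or with edgeR (0.0676). The duct gene with the highest mean, Krt7, was at 1112 to 3662 in KO and 1013 to 2075 in Het. None of the tested acinar, alpha cell, delta cell or beta cell markers was called by limma (0 of 4, 0 of 5, 0 of 3 and 0 of 9), and at an unadjusted p under 0.05 they held 1, an alpha cell marker. The highest means in these lists were those of Cela1 (6.47 to 22.6 in KO, 12.5 to 30.0 in Het), Ttr (604 to 1662 in KO, 675 to 2023 in Het), Sst (348 to 576 in KO, 139 to 481 in Het) and Ins2.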

How the data were processed

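RNA sequencing covered 8 libraries of sorted beta cells, 4 KO and 4 Het, grouped by sample title. Per the labels' protocols, islets were dissociated and libraries made with a stranded total RNA kit for pico inputs. Tools listed in the submitters' processing notes are STAR 2.7.3a, HTSeq, UMI-tools, DESeq2 1.28.1 and FastQC 0.11.8, with the build mm10. Their roles, the annotation, the strand setting and duplicate removal are not given in the sources used here. Without a stated strand setting, reads of overlapping antisense genes cannot be told apart.

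The deposited signal values are normalized counts made by the authors, and their steps show 1 divisor per library. Dividing by that step gave whole reads for 100% of values (tolerance 0.001). These were tested with edgeR 4.0.16 and DESeq2 1.42.0 as alternatives. KO and Het were compared with limma 3.58.1 in R 4.3.3 (trend and robust settings) on log2(value + 1), for genes whose mean reached 10, with Benjamini-Hochberg adjustment over all 21498 genes and a threshold of 0.05. It estimated nearly the same spread for all genes of like level, so that its p-values can be very small. For the same reason its standard errors do not give a gene's own spread. Single values were tested by a two-sided exact permutation test. Read intervals are exact Poisson intervals and cover counting error only. Replicates differed by more than counting noise, and same-numbered KO and Het libraries did not pair, with correlations of −0.55 to 0.63 and 2 of 4 over 0.1.

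All 10 genes are named. Of each list the called members and the one with the highest mean are named, plus members that bear on a receptor or cell type, chosen after their values were seen. The genes and lists were chosen with earlier results of these data known. Gene positions and lengths come from GENCODE M21. Alternatives changed the pseudocount, filter, scaling, limma settings and tool, and left out libraries.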

Additional observations from a re-analysis of the deposited data

Results flagged for a closer look

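In groups of 4 libraries, the gap of the highest or lowest library to its nearest neighbour was compared with the range of the group, by Dixon's criterion. Of 20 groups (10 genes in 2 genotypes) 5 had a library that stood apart. Chance gives about 1 in 20 for independent groups of normally distributed values. The 10 genes share the same 8 libraries and the values are unlogged counts, so that rate does not hold here. In 4 of the 5 this was KO 1 as the highest KO library, with normalized counts of 2820 for Ccl5, 8444 for Cxcl10, 1009 for Cxcl11 and 126 for Ccl2. The fifth was Het 3 as the lowest Het library for Cxcl9, with a normalized count of 5.14, or 6 reads.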

How the results depend on the processing

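Ccl5 was called higher in KO in every setting run. The number of the 10 genes called higher was 2, and it was 1 (Ccl5) with a minimum mean of 50, with both forms of TMM scaling, with edgeR, with KO 3 and KO 4 only, and with 2 settings added after the data were seen (TMM scaling with neither trend nor robust settings, and TMM scaling with KO 1 left out). It was 4 with KO 1 and KO 2 only and 4 with the libraries of both sexes only. Leaving out 1 library at a time gave 1 to 3. Among all genes, 198 were called higher. The count was 127 without trend or robust settings, 9780 with KO 1 and KO 2 only, 8464 with the libraries of both sexes only, 24 with TMM scaling and neither of those settings, and 92 with TMM scaling and KO 1 left out, and 105 to 337 with 1 library left out. The cause was not tested.

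Signs turned for 3 genes that were not called. Cxcl11 was at −0.19 with KO 3 and KO 4 only, at −0.21 with TMM scaling and KO 1 left out, and at −0.12 to 0.86 with 1 library left out. Cxcl16 was at 0.34 with KO 1 and KO 2 only, 0.21 with the libraries of both sexes only and −0.48 to 0.070 with 1 library left out, the positive value being that without KO 4. Cx3cl1 was at 0.33 and 0.20 in the first 2 of these settings. TMM scaling moved the median of all genes to −0.16, against 0.05. A fit with the replicate number as a block gave 2 of the 10 genes and 182 genes higher in all, and changed no call among the 10, while Tnfaip3 was no longer called (adjusted p = 0.0664). DESeq2 also called 2 of the 10, but these were Ccl5 and Cxcl10. It gave no p-value for Ccl2 and no adjusted p for Cxcl9. Depth limits Ccl7, Ccl20 and Cxcl9, which rest on at most 29 reads in any library. It also limits Ccl2, with 3 to 12 reads per library in Het and 14 to 32 in KO 2 to KO 4.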

Other observations

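The ratio of Cxcl10 to Cxcl11, both per kb of exon, was 14.1, 22.1, 11.0 and 19.0 in KO 1 to KO 4, against 4.34, 4.56, 10.2 and 15.8 in Het 1 to Het 4. This ratio within a library does not depend on the scaling between libraries, and the 2 groups overlap. The ratio of Ccl5 to Cxcl10 was 0.78, 0.37, 0.41 and 0.65 in KO 1 to KO 4, against 0.0089, 0.0059, 0.018 and 0.0083 in Het 1 to Het 4, with no overlap. Taf15, an RNA-binding protein gene on the far side of Heatr9 from Ccl5, was at 2204, 1560, 356 and 786 in KO 1 to KO 4, against 301, 353, 500 and 294 in Het 1 to Het 4, with a log2 fold change of 1.48 ± 0.54 that was not called (limma adjusted p = 0.293).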
